A study of Homo sapiens with 4 samples.

Results

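Engineered tissues of PC-3 prostate cancer cells grown with fibroblasts were compared with tissues of PC-3 cells grown alone, with 1 RNA sequencing library a side. The genes compared were all those with at least 1 CPM (the count divided by the total of its library and multiplied by 1000000) in either library, which made 14417 of the 17791 genes listed. PC-3 is an established line of castration-resistant prostate cancer, which the sample titles call CRPC-ne without explaining the suffix. BJ-5ta is a single line of normal human fibroblasts immortalised with the catalytic subunit of telomerase. The cells were encapsulated in a hydrogel of fibrinogen coupled to poly(ethylene glycol), at 20000000 cells per mL in the protocol, and kept in the medium of PC-3 cells. RNA was taken at day 15, and neither group received a treatment. The coculture held PC-3 and BJ-5ta cells at 5 to 1 when the tissues were formed, and the other group held PC-3 cells without fibroblasts. The protocol names 3 proportions of poly(ethylene glycol) diacrylate added to the gel without saying which of them each library had, so whether both groups shared a proportion was not known. LNCaP, an androgen-dependent prostate cancer line with its own library alone and with BJ-5ta cells, served only as a reference for what these fibroblasts add to another line.

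Fibroblasts build the collagen scaffold of a tissue, remodel it with secreted proteases and send growth factors and chemokines to the epithelium beside them. Carcinoma cells keep an epithelial programme of keratins and junction proteins and contribute laminins, integrins and proteases of their own. PC-3 is known to carry homozygous deletions at several places in its genome, among them parts that hold STAT3 and CTNNA1. A read from a gene that a line has lost cannot come from that line's genome, and in a mixed tissue this marks RNA of the other cells.

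The 2 libraries were close in depth, with 15865690 estimated counts without and 15687894 with fibroblasts, and 16904 and 17064 genes detected. Each group was 1 library, made from RNA of more than 2 tissues per the series description, so no difference below has a replicate check and none was tested across tissues. Each fold is the ratio of the scaled counts and carries an exact 95% interval. Such intervals, and the 3 counts that a count of 0 allows, describe counting error alone, since the reads carry no molecular identifiers and do not each stand for a separate molecule. Log2 folds, coculture over monoculture, add a prior count of 2 to each library and so understate the differences of scarce genes. Genes given as past a step, such as 2-fold, were counted on these log2 folds. A gene whose printed fold lies just past a step may therefore be left out of the count. In bulk RNA, fewer cells of a type and less RNA per cell cannot be told apart. Ribosomal RNA took 0.751% of counts in the monoculture and 2.16% in the coculture, a 2.90-fold difference in libraries whose kit selects polyadenylated RNA. Leaving ribosomal RNA genes out of the totals used for scaling left the median log2 fold of all genes at 0.01.

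Most genes differed little. The median log2 fold was 0.00, the middle 50% of genes lay between -0.17 and 0.17, and 10943 genes, 75.9% of those compared, were less than 25% higher and less than 20% lower, steps that are the same ratio up and down and are written "within 25%" below. At least 2-fold higher in the coculture were 320 genes (2.22%) and at least 2-fold lower were 146 (1.01%). Higher by 25% or more were 1694 genes (11.8%) and lower by 20% or more 1780 (12.3%), while 50.8% of log2 folds lay above 0 and 49.2% below. These shares are the background for the list counts given later. With ribosomal RNA left out of the totals, the 4 counts over all genes were 323, 142, 1755 and 1688. Correction for transcript length, described with the short genes below, raised the share of higher genes among those past this smaller step from 48.8% to 60.4%. Around the 1 CPM limit, the 84 genes whose higher value lay at most 5% above it had a median log2 fold of 0.11 and the 46 excluded genes at most 5% below it one of 0.79.

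The large differences are given by the level in the monoculture. All 100 genes with 3 counts or fewer in PC-3 tissue alone were higher by 2-fold or more with fibroblasts, and of 297 genes with more than 3 counts but under 1 CPM there, 125 were higher by 2-fold or more and 0 lower. The 1 CPM limit required both groups to be higher, and together they hold 225 of the 320. At 1 to under 5 CPM in the monoculture, 70 of 2207 genes were higher by 2-fold or more and 125 at least 2-fold lower, and at 5 to under 20 CPM the counts were 6 and 20 of 3216. Among 6046 genes at 20 to under 100 CPM, 6 were higher by 2-fold or more and 1 lower, and among 2551 genes at 100 CPM and over, 13 were higher, of which 12 encode ribosomal RNA, and 0 lower. The plot of CPM by library shows the spread narrowing towards abundant genes.

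**Figure D1:**
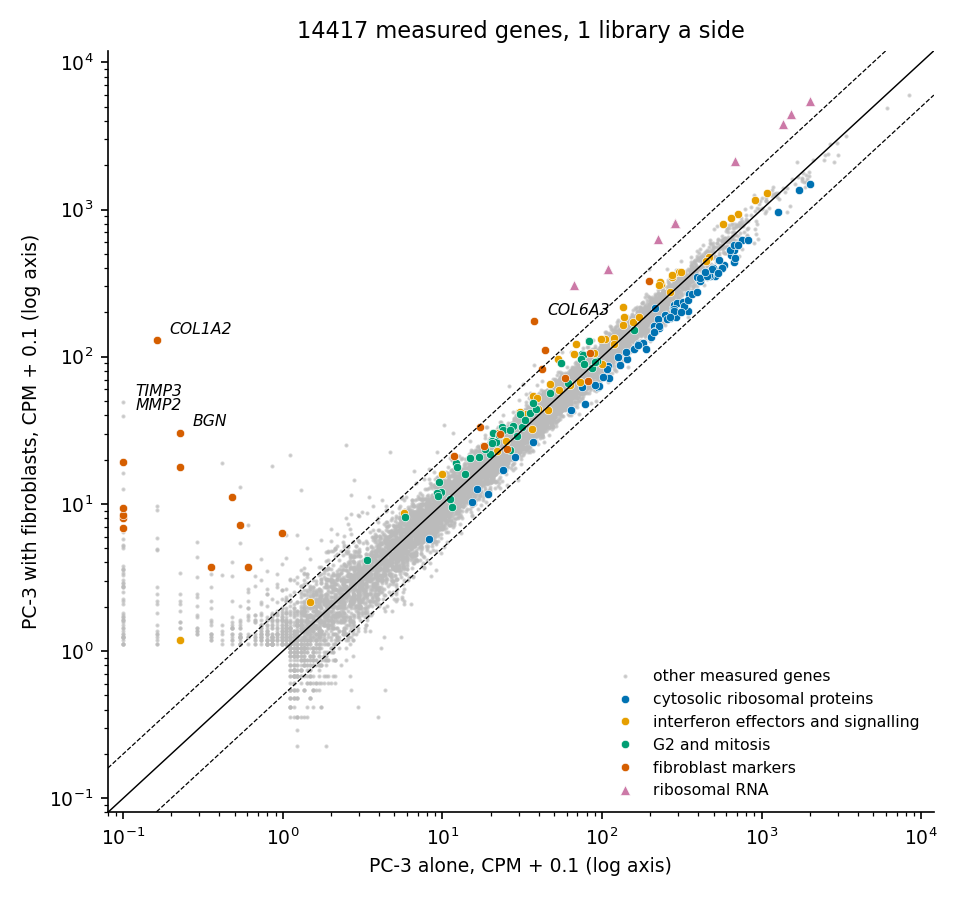
CPM of 14417 genes in PC-3 tissue alone (x axis) and with fibroblasts (y axis), both log axes with 0.1 added, 1 point a gene; the solid line marks equal levels and the dashed lines 2-fold. Collagen and protease genes of fibroblasts such as COL1A2 (1 count against 2026) stand at the left edge, ribosomal RNA genes lie above the upper dashed line, and ribosomal protein genes lie just under the solid line.

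STAT3, in a part known to be lost from PC-3, and its neighbours were read in mixed tissue but not in PC-3 tissue alone. On chromosome 17, 9 neighbouring genes between 42101411 and 42522579 (RefSeq, GRCh38.p14) had 0 counts each in PC-3 tissue alone, together 400 counts in PC-3 tissue with fibroblasts, and together 11777 in LNCaP tissue alone. Each of the 9 was detected in the PC-3 coculture. The genes on either side of the run, C17orf113 with 66 and 72 counts and NAGLU with 409 and 439, were present in both PC-3 libraries at similar counts. The run was outlined after the values were seen, starting from STAT3, STAT5A and STAT5B. Whether PC-3 has lost each of the 9 genes, and which cells gave their reads, was not tested.

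The 9 genes gave unequal counts in the coculture. STAT3, the transcription factor through which interleukin-6 signals, had 0 counts in the monoculture and 42 in the coculture, at least 14.3-fold higher. STAT5B, a signal transducer of growth hormone and cytokines, had 0 and 18 counts (at least 6.11-fold), whereas its neighbour STAT5A had 0 and 2, for which no fold is given. CAVIN1, which coats caveolae of the plasma membrane, had 0 and 253 counts and was at least 85.9-fold higher. The endosomal GTPase gene RAB5C had 0 and 46 counts (at least 15.6-fold), the acetyltransferase gene KAT2A 0 and 11, GHDC 0 and 10, and the proton pump subunit gene ATP6V0A1 0 and 7. DHX58, a regulator of RNA sensing that interferon induces, had 0 and 11 counts and stayed under 1 CPM in both. The run thus gave low counts of most genes and a high count of CAVIN1 alone.

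**Figure D2:**
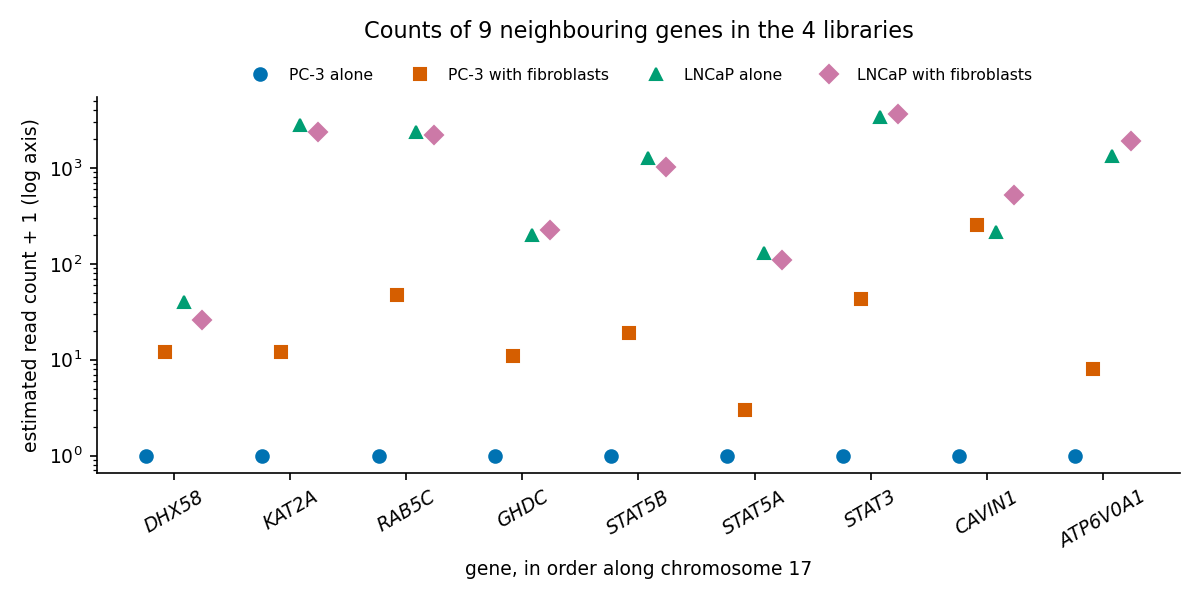
Estimated read count plus 1 (log axis) of 9 neighbouring genes of chromosome 17 in the 4 libraries, in chromosomal order. PC-3 tissue alone is at 0 counts for every gene, PC-3 tissue with fibroblasts ranges from 2 counts (STAT5A) to 253 (CAVIN1), and both LNCaP libraries hold at least 25 counts of each.

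Other genes at or near 0 in PC-3 alone included some that gained counts and some that did not. Among genes at 1 CPM or more in LNCaP tissue alone, 9 runs of 4 or more neighbours had 3 counts or fewer of each gene in PC-3 tissue alone. Of these runs, 5 summed to 5 counts or fewer in the PC-3 coculture and 4 to more. CTNNA1, alpha-catenin, which ties cadherins to actin and is lost in PC-3, had 1 count in the monoculture and 90 in the coculture, 91.7-fold higher with a wide interval that reached 3661, and 7288 in LNCaP tissue alone. On chromosome 10, TSPAN14, a tetraspanin, had 0 and 79 counts and its neighbour PRXL2A 0 and 50, the 2 genes detected of the 4 in their run, while the flanking genes ANXA11 (11252 and 10442) and GHITM (2744 and 2394) were abundant in both PC-3 libraries. HEXA, a lysosomal hexosaminidase, had 0 and 44 counts, and GTF2H2, a subunit of the transcription factor TFIIH, 0 and 18. These 4 genes were noticed after their values were seen, among genes that LNCaP tissue alone holds at 20 CPM or more.

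TERT had 3 counts in the monoculture and 67 in the coculture, 22.8-fold higher (7.46 to 113), and 115 and 152 in the LNCaP libraries without and with fibroblasts. BJ-5ta cells carry a TERT transgene, and whether the reads came from the transgene or from either cell's own gene was not tested. The gene was singled out after its values were seen.

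RNA found only in the library with fibroblasts was a small part of the total. The 100 genes with 3 counts or fewer in the monoculture and at least 1 CPM in the coculture summed to 8708 counts, 0.0555% of the coculture library, and the 5 highest of them held 48.1% of that sum. Of the 100, 55 had 0 counts in the monoculture and 79 reached 20 counts in the coculture. In the opposite direction, 3 of the 14417 genes had 3 counts or fewer in the coculture. PAMR1, a secreted protein with protease-like domains, had 1 and 150 counts. The complement-activating protease gene MASP1 had 1 and 75 counts, and the protease inhibitor gene A2M 0 and 81. Together these genes of secreted proteins stood well clear of the monoculture, by at least 27.5-fold for A2M.

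Transcription factors of mesenchymal tissues were among the genes read in the coculture alone. PRRX1, a homeobox factor of limb and stromal mesenchyme, had 0 and 106 counts, TBX5, a T-box factor, 0 and 44 (at least 14.9-fold), and its antisense neighbour TBX5-AS1 0 and 24. The forkhead factor genes FOXF1 and FOXF2 had 0 counts in the monoculture and 38 and 26 in the coculture, and SALL1 had 0 and 25. HOXA7 had 0 and 19 counts, and the imprinted noncoding RNA MEG3 0 and 27. Receptors and enzymes were read likewise, with 0 and 89 counts for the bradykinin receptor gene BDKRB2, 0 and 41 for the prostacyclin synthase gene PTGIS, and 0 and 52 for GAS1. Apart from PRRX1, FOXF2 and MEG3, these genes were chosen after their values were seen.

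The LNCaP coculture held much of the same RNA. Of genes with 3 counts or fewer in both monocultures, 44 reached 20 counts with fibroblasts in PC-3 tissue and 51 in LNCaP tissue, and 33 did so in both, which is 75% of the PC-3 list and 64.7% of the LNCaP list. Over the 33 shared genes the scaled level in the PC-3 coculture was a median of 0.675 times that in the LNCaP coculture, with the middle 50% between 0.505 and 0.943. It was higher in the PC-3 coculture for 6 of the 33. The share of fibroblasts at day 15 was not measured in either tissue.

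Fibroblast markers were higher throughout most of their list. Of 30 fibroblast markers among the genes listed, 25 were measured. Of these, 15 were higher by 2-fold or more and 0 lower, against 2.22% and 1.01% of all genes. The median log2 fold was 2.58 against 0.00 over all genes. PC-3 tissue alone held 12 of the 25 at 1 CPM or more, and the others had to be higher to be measured. Over those 12 the median was 0.61. The summed level of the 30 was 643 CPM without and 1336 CPM with fibroblasts. The part of this added RNA in each gene group below was not tested. THY1, a surface protein used to sort fibroblasts, had 0 and 124 counts (at least 42.1-fold). FAP, a surface protease of activated fibroblasts, had 4 and 57 counts and was 14.5-fold higher (5.37 to 55.1). The lowest members were S100A4, with 1296 and 1065 counts, and TWIST1, with 402 and 370. POSTN had 0 and 2 counts, and PDPN had 12 in either library, so these stromal markers did not separate the tissues.

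Markers of vessel, blood and muscle cells, which were not added, included higher genes as well. Among endothelial genes, VWF, TEK, CLDN5 and EMCN were at 0 in the monoculture and had 3, 5, 5 and 1 counts in the coculture. The 11 endothelial markers among the genes listed, of which 6 were measured, summed to 282 CPM and 296 CPM. Most of this was KDR, which had 2681 and 2562 counts. FLT1, a receptor of vascular endothelial growth factor, had 3 and 48 counts, 16.3-fold higher (5.25 to 81.8), and was 1 of the 6 at least 2-fold higher. CD14, a lipopolysaccharide coreceptor of monocytes that other cells can also make, had 9 and 26 counts. It was 1 of 3 measured blood markers, all higher by 25% or more. The 5 blood markers among the genes listed summed to 46.1 and 61.6 CPM. CD68, a lysosomal protein of macrophages that other cells also make, had 678 and 888 counts, 1.33-fold higher (1.21 to 1.48). Of 8 measured pericyte and smooth muscle markers, 4 were higher by 2-fold or more: ACTA2 (1 and 31 counts), SYNPO2 (4 and 24), TAGLN (39 and 113) and CSPG4 (52 and 134). The median over the 8 was 0.80, or 0.24 over the 6 at 1 CPM or more in the monoculture. MYH11, the myosin of mature smooth muscle, had 2 counts and 1.

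Fibrillar collagens, which form the tensile fibres of stroma, were higher in the coculture, and some came from chains that PC-3 tissue alone did not express. Of 11 measured, 5 were higher by 2-fold or more with 0 lower, all 11 lay above 0 and the median log2 fold was 0.95, or 0.32 over the 7 at 1 CPM or more in PC-3 tissue alone. COL5A3, a chain of type V collagen, had 0 and 100 counts and was at least 34.0-fold higher. COL5A1, the main type V chain, had 272 and 519 counts, 1.94-fold higher (1.68 to 2.26), whereas COL5A2 had 7919 and 8549. The cartilage collagen gene COL2A1, already at 7100 counts in PC-3 tissue alone, had 7490 in the coculture, 1.07-fold higher (1.04 to 1.11). COL3A1, a fibrillar chain of soft tissue, was held by PC-3 tissue alone at 697 counts and had 1742 with fibroblasts, 2.55-fold higher (2.33 to 2.78), whereas COL24A1 had 24 and 30. Chains under 1 CPM in the monoculture had to be higher to be measured, which holds for such genes in every list.

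Other interstitial collagens also held chains with large and with small differences. Of 12 measured, 3 were higher by 2-fold or more on the log2 scale with 0 lower, and the median lay at 0.59. COL16A1, with 39 and 78 counts, had a fold of 2.04 but a log2 fold of 0.990, so it was not counted. COL7A1, the collagen of anchoring fibrils under epithelia, had 41 and 180 counts, 4.47-fold higher (3.17 to 6.44). COL12A1, which associates with collagen fibrils, had 182 and 475, 2.66-fold higher (2.24 to 3.17). COL17A1, a transmembrane collagen of hemidesmosomes, had 376 and 633, 1.71-fold higher (1.51 to 1.95). COL6A1 and COL6A2, chains of the beaded filaments of type VI collagen, had 12677 and 9917 counts alone and 14356 and 12296 with fibroblasts, folds of 1.15 and 1.26.

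Basement membrane genes were higher across nearly the whole list by small folds. The basement membrane is the sheet of laminin, type IV collagen and nidogen on which epithelia sit, and PC-3 tissue alone already expressed most of its parts. Of 21 measured genes, 15 were higher by 25% or more and 0 lower against 11.8% and 12.3% of all genes, 20 lay above 0 and the median log2 fold was 0.50, or 0.46 after correction for length. Over the 19 held at 1 CPM or more in the monoculture it was 0.49, so the median did not rest on the genes scarce there.

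Type IV collagen chains COL4A1 and COL4A2 had 356 and 837 counts alone and 513 and 1224 with fibroblasts, 1.47-fold (1.28 to 1.69) and 1.49-fold (1.36 to 1.63) higher. NID1, which links laminin to type IV collagen, had 1382 and 2023 counts, 1.49-fold higher (1.39 to 1.60). The laminin chains of epithelial adhesion LAMA3 and LAMB3 had 2968 and 3777 counts alone and 3961 and 4579 with fibroblasts, 1.36-fold and 1.24-fold higher. COL18A1, source of endostatin, had 1202 and 1783 counts, 1.51-fold higher (1.40 to 1.63). COL15A1 had 0 and 54 counts (at least 18.3-fold) and LAMA1, the laminin chain of early epithelia, 3 and 19. HSPG2, which encodes perlecan, was the lowest member with 10749 and 9722 counts, a fold of 0.921 (0.896 to 0.947).

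Enzymes that process and cross-link collagen differed less. Of 23 measured, 2 were higher by 2-fold or more with 0 lower, 21 lay above 0, and the median log2 fold was 0.26. ADAMTS2, which trims the amino end of procollagen, had 2 and 33 counts, a ratio of 16.8 (4.30 to 145), and the lysyl oxidase gene LOXL3 had 15 and 95, 6.45-fold higher (3.72 to 12.0). PCOLCE, an enhancer of procollagen trimming, had 120 and 231 counts, 1.96-fold higher (1.57 to 2.47). SERPINH1, the collagen chaperone, had 1131 and 1438, 1.30-fold higher (1.20 to 1.40). LOXL4, another lysyl oxidase, had 200 and 127 counts and was the only member lower by 20% or more.

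Elastic fibre genes, proteoglycans and matricellular proteins each held a few genes with large folds. Of 14 elastic fibre and microfibril genes, 4 were higher by 2-fold or more with 0 lower (median 0.46, or 0.21 over the 11 at 1 CPM in the monoculture). EMILIN1, an elastin-associated glycoprotein, had 19 and 194 counts, 10.4-fold higher (6.48 to 17.7), and FBLN5, a fibulin needed for elastic fibres, 3 and 35. FBLN1 had 662 and 1301 counts, 2.00-fold higher with a lower limit of 1.82, and its log2 fold of 0.999 left it out of the 4. Of 18 proteoglycan and hyaluronan genes, the 3 at least 2-fold higher included LUM, lumican, with 6 and 173 counts, and 15 at 1 CPM or more in the monoculture had a median of 0.13. SDC2, a membrane syndecan, was lower with 1180 and 881 counts. THBS2, a thrombospondin of stroma, had 12 and 281 counts, 23.9-fold higher (13.4 to 46.7), while CCN1 (1779 and 1805), CCN2 (1296 and 1196) and SPARC (3294 and 3470) lay close to 1.

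**Figure D3:**
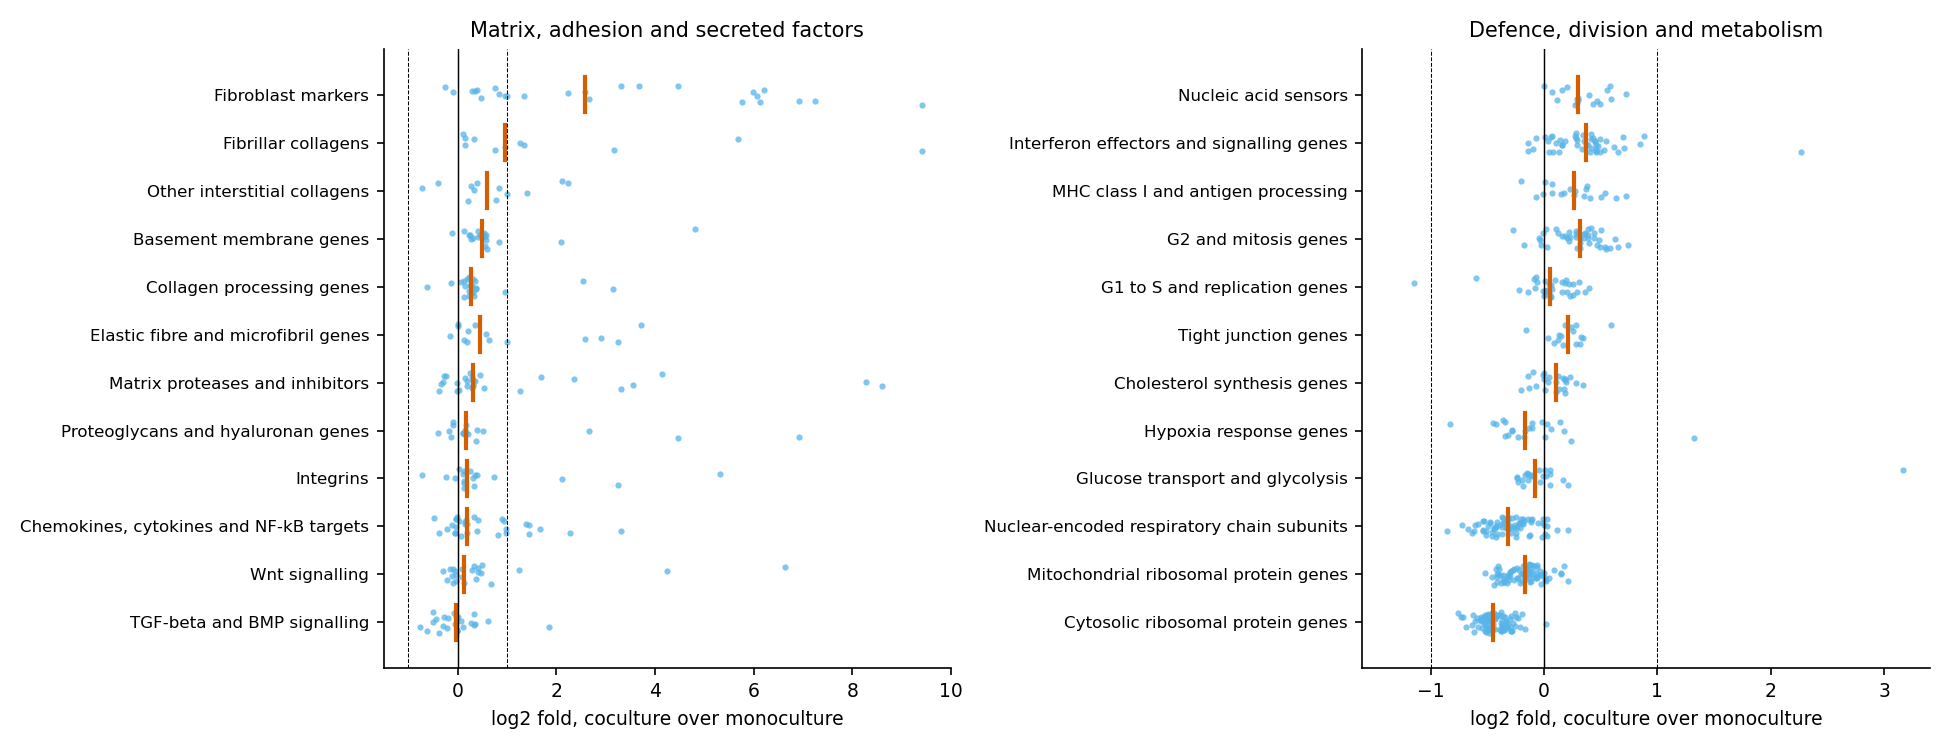
Log2 fold, coculture over monoculture, of every measured member of 24 gene lists (points) with the list median (orange bar); the dashed lines mark 2-fold. Fibroblast and collagen lists reach to the right, basement membrane, interferon and mitosis lists sit above 0 by less than 1, and ribosomal protein and respiratory chain genes sit below 0.

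Proteases and their inhibitors were higher for a subset. Of 29 measured, 8 were higher by 2-fold or more with 0 lower, and the median lay at 0.30, or at 0.24 over the 23 genes at 1 CPM in PC-3 tissue alone. MMP3, a stromelysin, had 3 and 85 counts, a ratio of 28.9 (9.55 to 143). CTSK, the collagen-cleaving cathepsin of osteoclasts and fibroblasts, had 43 and 225 counts, 5.33-fold higher (3.83 to 7.57), and MMP11 38 and 125, 3.35-fold higher (2.31 to 4.95). MMP14, the membrane protease that activates the gelatinase MMP2, was abundant in PC-3 tissue alone and had 2205 and 2955 counts, 1.37-fold higher (1.29 to 1.44). TIMP2 had 7701 and 7517 counts, a fold of 0.994. ADAMTS1 was lower, with 638 and 479 counts.

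Integrins, the receptors through which cells hold matrix, included a few alpha chains with large folds, all under 1 CPM in the monoculture and so measured only through the coculture. Of 18 measured, 3 were higher by 2-fold or more with 0 lower, with a median of 0.19, or 0.12 over the 15 at 1 CPM in the monoculture. ITGA4, the alpha4 chain that binds fibronectin and VCAM1, had 11 and 53 counts, 4.91-fold higher (2.53 to 10.4), and ITGA8 had 0 and 17. ITGB4, the laminin receptor chain of hemidesmosomes, had 26399 and 33007 counts, 1.27-fold higher with an upper limit of 1.29. Its difference of 440 CPM was the largest upward of any gene but those of ribosomal RNA. ITGB1, the common beta chain, had 18595 and 19979, 1.09-fold. ITGAE, which binds E-cadherin, was lower with 57 and 33 counts.

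Mesenchymal transition factors included both higher and lower genes. Of 12 measured, 5 were higher by 2-fold or more with 0 lower, but the median was -0.03 and the mean 1.15, and over the 8 held at 1 CPM or more in the monoculture the median was -0.14. ZEB2, under 1 CPM in the monoculture, had 6 and 49 counts, 8.32-fold higher (3.56 to 23.8), and SNAI1 20 and 51, 2.60-fold higher with a lower limit of 1.52. SNAI2, which represses E-cadherin, had 102 and 71, and CDH2, N-cadherin, 262 and 210. ZEB1 had 234 and 226 counts, a fold of 0.984 (0.816 to 1.19). Of 15 contractile genes, 3 were higher by 2-fold or more (ACTA2, TAGLN and TPM2), and the abundant FLNA (21740 and 22034) and MYH9 (11682 and 12191) were within 25%. Of 6 caveola genes, CAVIN1 and CAVIN3 (0 and 58 counts) were higher by 2-fold or more, whereas CAV1, the structural caveolin, had 1047 and 1128.

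The ligands of platelet-derived growth factor receptors were lower and a receptor was higher. PDGFRA, a receptor of platelet-derived growth factor, had 186 and 328 counts, 1.80-fold higher (1.50 to 2.16). The ligand genes were lower: PDGFA had 594 and 470 counts, PDGFB 1194 and 956, PDGFC 294 and 230, and PDGFD 115 and 71. Their folds ran from 0.629 (PDGFD, 0.461 to 0.853) to 0.816 (PDGFB, 0.748 to 0.889). In that list of 18 genes, 2 were higher by 2-fold or more, 0 lower, and the median was 0.07. MET, the receptor of hepatocyte growth factor, had 4983 and 5747 counts, 1.17-fold higher (1.13 to 1.22).

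Ligands of the EGF receptor family went both ways. NRG1, a neuregulin, had 8 and 24 counts, 3.06-fold higher (1.33 to 7.87), and EREG, epiregulin, 61 and 117, 1.95-fold higher (1.42 to 2.71), while HBEGF had 540 and 413, a fold of 0.779 (0.684 to 0.887). The neuregulin receptor genes ERBB3 (1831 and 2388) and ERBB2 (2739 and 3314) were 1.33-fold and 1.23-fold higher. In the IGF axis, PAPPA, a protease that frees IGF from its binding proteins, had 0 and 55 counts (at least 18.7-fold) and STC1, which inhibits PAPPA, 1007 and 1700, 1.72-fold higher (1.59 to 1.86). IGFBP3 and IGFBP5 were slightly lower, with 11454 and 9839 and with 9050 and 8047 counts. The list medians were 0.18 over 11 EGF family genes and 0.12 over 15 IGF genes.

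TGF-beta and BMP genes had no common direction. Of 25 measured, 1 was higher by 2-fold or more with 0 lower, 5 were higher by 25% or more and 6 lower, and the median was -0.04. GREM1, a secreted BMP antagonist, had 13 and 51 counts, 4.00-fold higher (2.14 to 8.01), and INHBA, a subunit of activin, 560 and 836, 1.52-fold higher (1.36 to 1.70). The BMP target genes ID1 (1350 and 1016 counts) and ID2 (535 and 371) were lower, at folds of 0.767 (0.706 to 0.832) and 0.706 (0.617 to 0.808). NOG, another BMP antagonist, was lower as well, with 1263 and 910 counts.

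Wnt genes went both ways, with large folds for a few. Of 23 measured, 3 were higher by 2-fold or more and 10 by 25% or more, 0 lower by 2-fold or by 20%, and 9 lay below 0. The median was 0.13, or 0.09 over the 21 at 1 CPM in PC-3 tissue alone. The 30 Wnt genes among those listed, measured or not, summed to 1813 CPM alone and 1739 CPM with fibroblasts. SFRP1, a secreted Wnt inhibitor, had 16 and 333 counts, 21.2-fold higher (12.9 to 37.5), and WNT5A, a ligand of the noncanonical pathway, 563 and 883, 1.60-fold higher (1.44 to 1.78). DKK1, the Wnt inhibitor that PC-3 secretes in quantity, had 14935 and 12582 counts, a fold of 0.858 (0.838 to 0.879), and FZD8, a Wnt receptor, 5533 and 5069. AXIN2, a common target of the canonical pathway, had 113 and 90. Of 23 YAP and TEAD targets, 1, FOXF2, was higher by 2-fold or more and the median was 0.03.

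Chemokines, cytokines and NF-kB targets were higher for a subset, with NF-kB subunits and epithelial targets near 1. Of 31 measured, 6 were higher by 2-fold or more and 14 by 25% or more, 0 and 2 lower, with a median of 0.18. C3, the central component of complement, had 73 and 353 counts, 4.93-fold higher (3.82 to 6.43). IL1B had 57 and 150 counts, 2.68-fold higher (1.96 to 3.70), and the neutrophil attractant genes CXCL1, CXCL2, CXCL5 and CXCL8 had 39, 25, 16 and 293 counts alone and 73, 50, 46 and 380 with fibroblasts. PTGES, a prostaglandin E synthase, had 302 and 522, 1.76-fold higher (1.53 to 2.04), and PTGER4, a prostaglandin E receptor outside this list, 129 and 268, 2.12-fold higher (1.71 to 2.63). ICAM1 (2021 and 2088) and NFKBIA (1742 and 1957) were within 25%, and IL33 was lower (266 and 187). IL6 itself was scarce, with 12 and 25 counts, 2.12-fold (1.03 to 4.64), and on the log2 scale was not among the 6.

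Complement genes, which tag cells and matrix for clearance, went both ways. Of 15 measured, 2 were higher by 2-fold or more (C3 and SERPING1) and 1 lower (C4B), and the median was 0.13. SERPING1, the C1 inhibitor, had 61 and 124 counts, 2.07-fold higher (1.51 to 2.86). C4B had 51 and 22 counts, 2.28-fold lower (1.36 to 3.94), and shares nearly all of its sequence with C4A, so this value is uncertain. Of 18 angiogenic genes, 8 were higher by 25% or more and 1 lower by 20%, with a median of 0.28, or 0.22 over the 16 at 1 CPM in PC-3 tissue alone. NRP2, a coreceptor of vascular and lymphatic growth factors, had 29 and 72 counts, 2.53-fold higher (1.62 to 4.04).

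Interferon genes were higher across their list by small folds, while interferon RNA itself was scarce. Interferons bind receptors that activate a complex holding STAT2 and IRF9, which binds a repeated GAAA element and switches on antiviral genes. Of 49 effector and signalling genes measured, 45 lay above 0 on the log2 scale, against 50.8% of all genes. Of the 49, 28 were higher by 25% or more and 0 lower by 20% or more, against 11.8% and 12.3% of all genes. In this list 1 gene, CXCL10, was past 2-fold. The median was 0.37, and 0.39 after correction for length. The list's summed level was 9166 CPM alone and 11453 CPM with fibroblasts. Whether PC-3 cells or fibroblasts held the additional RNA was not tested.

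Abundant effectors gave narrow intervals. RSAD2, viperin, which blocks viral RNA synthesis, had 1086 and 1915 counts, 1.80-fold higher (1.67 to 1.94), and SAMD9, a restriction factor, 2149 and 3418, 1.62-fold higher (1.53 to 1.71). MX1, an antiviral GTPase, had 9091 and 12584 counts, 1.41-fold higher (1.37 to 1.45). ISG15, a ubiquitin-like modifier, had 17033 and 20410, 1.22-fold higher. The IFITM genes, which block viral entry, stood apart as measured. IFITM1 had 7396 and 7490 counts, IFITM3 7084 and 6978, and IFITM2, slightly lower, 1578 and 1407. IFITM2 and IFITM3 are short transcripts, and after correction for length their log2 folds were 0.14 and 0.26, so the direction of IFITM2 depended on that correction.

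RNA sensors followed the effectors. Of 18 nucleic acid sensors, 8 were higher by 25% or more and 0 lower, against 11.8% and 12.3% of all genes. Of these sensors 17 lay above 0 and the median was 0.30. IFIH1, the MDA5 sensor of long double-stranded RNA, had 1328 and 1960 counts, 1.50-fold higher (1.40 to 1.61), OAS3 14240 and 19689, 1.41-fold higher (1.38 to 1.44), and DDX58, the RIG-I sensor, 1090 and 1444, 1.35-fold higher with an upper limit of 1.46. The DNA sensor CGAS had 254 and 249 counts. Of 19 class I and antigen processing genes, 8 were higher by 25% or more and 0 lower, against the same shares, with a median of 0.26. HLA-B, which shares sequence with other class I genes, had 4945 and 7039 counts, 1.45-fold higher (1.40 to 1.50), TAP2, a peptide transporter, 1662 and 2313, and NLRC5, their transcriptional activator, 239 and 365. The immunoproteasome genes PSMB8 (948 and 977), PSMB9 (242 and 236) and PSMB10 (277 and 236) were not higher beyond counting error as measured. After correction for length their log2 folds were 0.22, 0.22 and -0.07.

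Interferon transcripts themselves were scarce. IFNB1 had 1 and 3 counts, IFNL1 and IFNL2 were at 0 in both libraries, and IFNE had 14 and 10. The receptor genes were similar, with 2022 and 2149 counts for IFNAR1, 385 and 346 for IFNAR2 and 333 and 332 for IFNGR1, and over 9 measured interferon and receptor genes the median was 0.09.

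The GAAA element could be read in the promoters of these genes. The motif, GAAA followed by any 2 bases and GAAA again, was searched on both strands of RefSeq promoters on GRCh38.p14 (250 bases before to 50 after each gene start). It occurred in 3.65% of 27305 promoters and in 2.85% of those of measured genes. Of the 49 effector genes, 41 matched a promoter by symbol and 26 of these (63.4%) held the motif, as did 9 of 15 class I genes (60%) and 4 of 13 sensors (30.8%). Effectors with the motif had a median log2 fold of 0.36 and those without it one of 0.45, while sensors had 0.53 with it (4 genes) and 0.29 without (9 genes), so the lists went different ways. A match describes these letters in this window and is not evidence of binding. The 60 bases shown lie before the gene start, 5′ to 3′ on the strand of the gene, with matches of the motif or its reverse complement in capitals. The 6 genes have the highest log2 folds among effectors and sensors that hold the motif before the gene start and at least 10 CPM in the monoculture, and they show how near the element lies to the start.
SAMD9, chr7:93118081-93118140, minus strand: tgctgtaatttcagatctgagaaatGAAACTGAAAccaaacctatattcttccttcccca
IFIH1, chr2:162318685-162318744, minus strand: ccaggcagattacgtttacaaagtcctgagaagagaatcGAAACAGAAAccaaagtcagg
OAS3, chr12:112938414-112938473, plus strand: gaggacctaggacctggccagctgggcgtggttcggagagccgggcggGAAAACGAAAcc
IFIT5, chr10:89414508-89414567, plus strand: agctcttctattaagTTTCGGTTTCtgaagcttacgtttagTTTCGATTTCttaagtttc
BST2, chr19:17405720-17405779, minus strand: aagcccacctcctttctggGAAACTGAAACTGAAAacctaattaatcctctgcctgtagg
IFIT3, chr10:89327850-89327909, plus strand: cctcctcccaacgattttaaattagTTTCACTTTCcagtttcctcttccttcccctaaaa

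In OAS3 the element starts 12 bases before the gene start and in IFIH1 21 bases, whereas in SAMD9 and BST2 it starts 136 and 124 bases before. BST2, tetherin, which holds virions at the cell surface, had 3674 and 5033 counts, 1.40-fold higher (1.34 to 1.46). IFIT5 and IFIT3, which bind RNA, had 746 and 2166 counts alone and 1029 and 2923 with fibroblasts, 1.41-fold (1.28 to 1.55) and 1.37-fold (1.30 to 1.45) higher. IFIT5 holds the element more than once in its promoter.

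Genes of G2 and mitosis were higher by similar small folds, and genes of DNA replication were not. Of 44 genes of chromosome segregation and cell division measured, 38 lay above 0, against 50.8% of all genes. Of the 44, 20 were higher by 25% or more and 0 lower, against 11.8% and 12.3% of all genes, and none reached 2-fold. The median log2 fold was 0.32, and 0.34 after correction for length. Of 35 genes of the G1 to S transition and replication, 2 were higher by 25% or more and 2 lower, with a median of 0.06. CENPE, the kinetochore motor, had 191 and 296 counts, 1.58-fold higher (1.31 to 1.90), and the kinesin gene KIF14 329 and 471, 1.46-fold higher (1.26 to 1.68). BUB1B, a spindle checkpoint kinase, had 373 and 519, 1.42-fold higher (1.24 to 1.62), and TOP2A, which untangles chromosomes, 1187 and 1635, 1.40-fold higher (1.30 to 1.51).

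Not every mitotic gene took part. CDK1, the kinase that starts mitosis, had 1472 and 1463 counts, CCNB1, its cyclin, 466 and 454, and BIRC5, survivin, 1441 in either library. CENPA, the histone of centromeres, had 181 and 147 counts, a fold of 0.827 (0.661 to 1.03). On the replication side, MCM2 had 876 and 1131 counts, 1.32-fold higher (1.20 to 1.44), and RRM2 2271 and 2489. CCNE1, the cyclin of the G1 to S transition, was lower, with 88 and 38 counts (2.27-fold, 1.54 to 3.42), and so was GINS2, part of the replicative helicase, with 341 and 220 (1.52-fold, 1.28 to 1.81). No cell counts were given with these libraries, and whether the RNA came from PC-3 cells or fibroblasts was not tested.

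**Figure D4:**
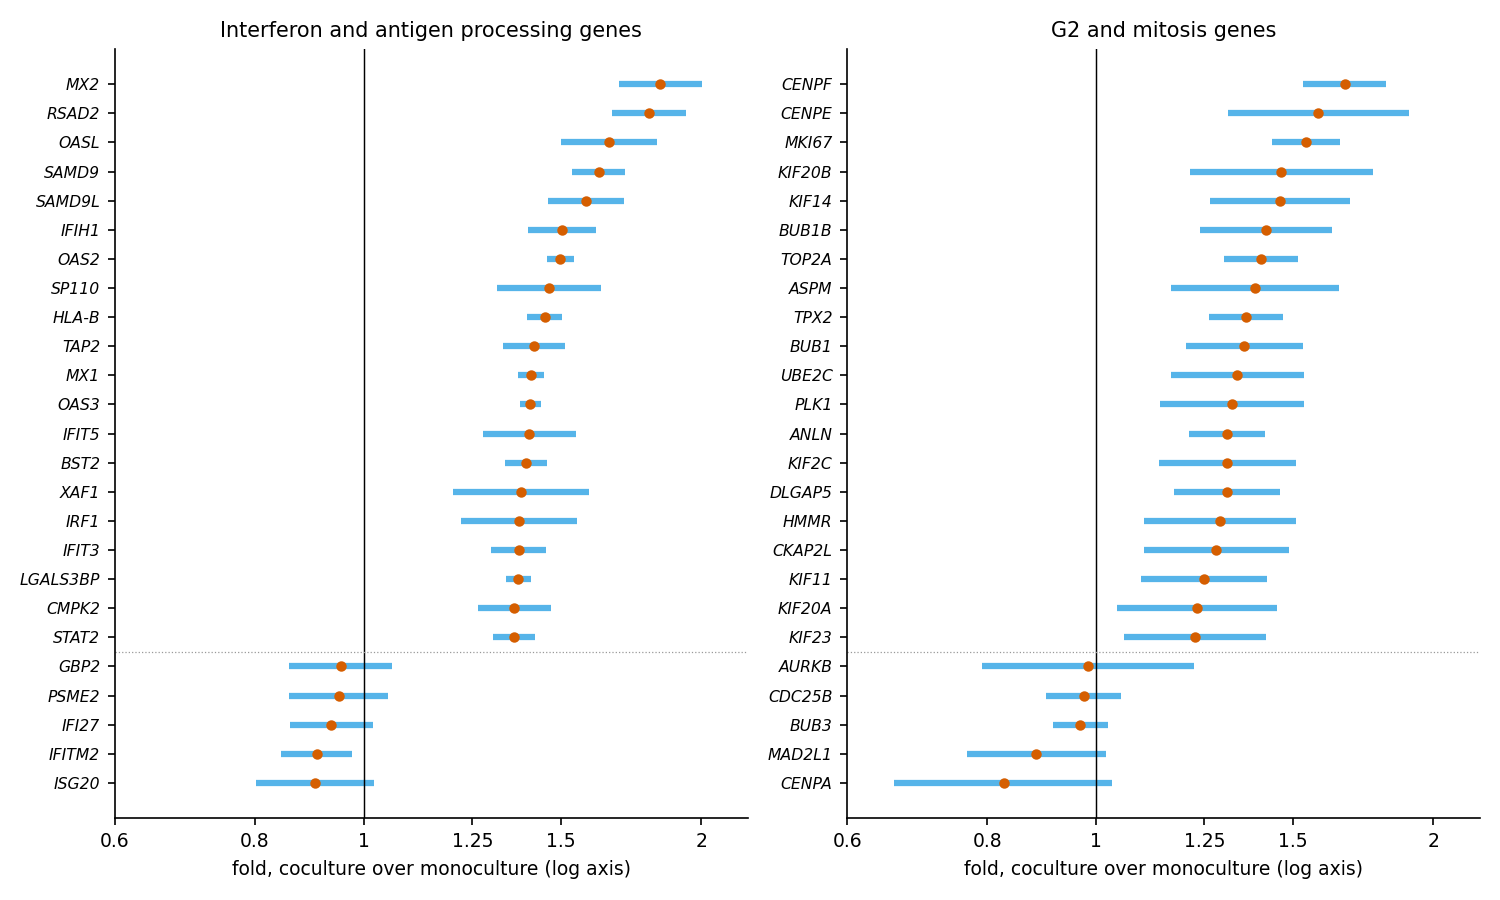
Fold, coculture over monoculture (log axis), of interferon, sensor and antigen processing genes (left) and G2 and mitosis genes (right), with exact 95% counting intervals as bars; the dotted line parts the 20 highest members at 20 CPM or more (left) and 10 CPM or more (right) from the 5 lowest. MX2 and RSAD2 lead the left panel and CENPF and CENPE the right, and the lowest members of either panel have intervals that reach or pass below 1.

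A cell cycle element was likewise common in these promoters. The sequence TTTGAA, known from promoters of late cell cycle genes, occurred on either strand in 15.4% of 27305 promoters and in 9.62% of those of measured genes. It was present in 25 of 37 matched promoters of G2 and mitosis genes (67.6%) and in 2 of 29 of G1 to S genes (6.90%). CCAAT, the box bound by NF-Y, occurred in 35.7% of all promoters, in 75.7% of the G2 and mitosis promoters and in 51.7% of the G1 to S promoters. Mitotic genes with TTTGAA had a median log2 fold of 0.36 and those without one of 0.29, while with CCAAT the median was 0.31 and without it 0.39. The windows are chosen and drawn as above, with TTTGAA or its reverse complement TTCAAA in capitals, and show the element for the 6 mitotic genes with the highest log2 folds that hold it before the gene start.
MKI67, chr10:128126424-128126483, minus strand: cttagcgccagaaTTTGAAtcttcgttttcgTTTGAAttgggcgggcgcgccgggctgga
BUB1B, chr15:40161009-40161068, plus strand: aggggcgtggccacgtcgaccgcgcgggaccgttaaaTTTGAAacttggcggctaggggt
TOP2A, chr17:40418013-40418072, minus strand: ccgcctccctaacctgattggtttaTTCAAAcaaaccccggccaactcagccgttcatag
ASPM, chr1:197146748-197146807, minus strand: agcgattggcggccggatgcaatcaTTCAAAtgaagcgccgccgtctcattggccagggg
PLK1, chr16:23678829-23678888, plus strand: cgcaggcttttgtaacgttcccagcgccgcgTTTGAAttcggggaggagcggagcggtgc
ANLN, chr7:36389802-36389861, plus strand: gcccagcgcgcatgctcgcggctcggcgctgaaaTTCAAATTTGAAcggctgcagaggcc

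MKI67 holds the element in 2 places, the nearer 29 bases before the gene start, and BUB1B 23 bases before it. ASPM, a spindle pole protein, had 236 and 321 counts, 1.39-fold higher (1.17 to 1.65), and PLK1, a mitotic kinase, 323 and 419, 1.32-fold higher (1.14 to 1.53). ANLN, anillin of the cleavage furrow, had 1171 and 1505, 1.31-fold higher (1.21 to 1.41).

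Genes of cell death and the p53 response changed little as lists. Of 26 p53 targets and cell cycle inhibitors, 1 was higher by 25% or more and 3 lower (median -0.05), and of 28 BCL2 family and caspase genes, 1 and 3 (median -0.02). After correction for length, 2 were higher and 0 lower in the p53 list (median 0.01), and 2 and 1 in the BCL2 list (median -0.02). CCNG1, a p53 target, had 1678 and 1199 counts, a fold of 0.728 (0.675 to 0.784), CDKN2A 1838 and 1359, and PMAIP1, which encodes NOXA, 1155 and 871. Their log2 folds after correction for length were -0.28, -0.18 and -0.31.

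Hypoxia genes were lower by a small step and glycolytic genes close to 1. Of 23 hypoxia response genes, 6 were lower by 20% or more and 1 higher, with a median of -0.17. After correction for length 3 were lower and 1 higher, with a median of -0.14. HILPDA, a lipid droplet protein outside this list that hypoxia induces, had 5513 and 2930 counts, 1.85-fold lower (1.77 to 1.93). ANKRD37 had 361 and 199 counts, 1.78-fold lower (1.49 to 2.13), and BNIP3L, a mitophagy receptor, 4757 and 3489, 1.34-fold lower (1.28 to 1.40). ANGPTL4, an inhibitor of lipoprotein lipase, had 8687 and 6719, 1.27-fold lower (1.23 to 1.31), while VEGFA had 3939 and 3589, 1.08-fold lower. Of 22 genes of glucose transport and glycolysis, 1 was higher by 25% or more and 0 lower by 20%, with a median of -0.08 and a mean of 0.08. LDHA, lactate dehydrogenase, had 30362 and 25256 counts, 1.18-fold lower (1.16 to 1.20), and PKM 42785 and 43583.

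Sterol and fatty acid synthesis leaned slightly higher. Of 24 cholesterol synthesis genes, 17 lay above 0 with a median of 0.10, and of 16 fatty acid genes 13 with a median of 0.16. Over all genes 50.8% lay above 0. In each list 1 gene was higher by 25% or more, against 11.8% of all genes. SQLE, squalene epoxidase, had 2756 and 3439 counts, 1.27-fold higher (1.21 to 1.34), and FADS2, a fatty acid desaturase, 10404 and 12788, a similar step. Amino acid transporters lay above 0 in 16 of 17 members, against the same 50.8% of all genes (median 0.23). SLC7A5 had 4723 and 5828 counts and the glutamate transporter gene SLC1A3 106 and 216. Chaperones of the endoplasmic reticulum (26 genes, median 0.04) and heat shock genes (15 genes, median 0.07) were near the median of all genes, though HSPA6, an inducible HSP70 outside the list, had 888 and 1679 counts, 1.93-fold higher (1.77 to 2.09).

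Short transcripts were lower in the coculture as a class, and this bears on several gene groups. With genes parted by transcript length into 10 classes of equal size, the median log2 fold ran from -0.20 for the shortest (87 to 1016 bases) through -0.10, -0.03 and -0.01 to 0.02 for the fifth and 0.08 for the longest (from 5755 bases). Lengths were known for 97.5% of the genes. Ribosomal RNA moved in the opposite direction, and the part of RNA quality or library preparation in either was not tested.

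**Figure D5:**
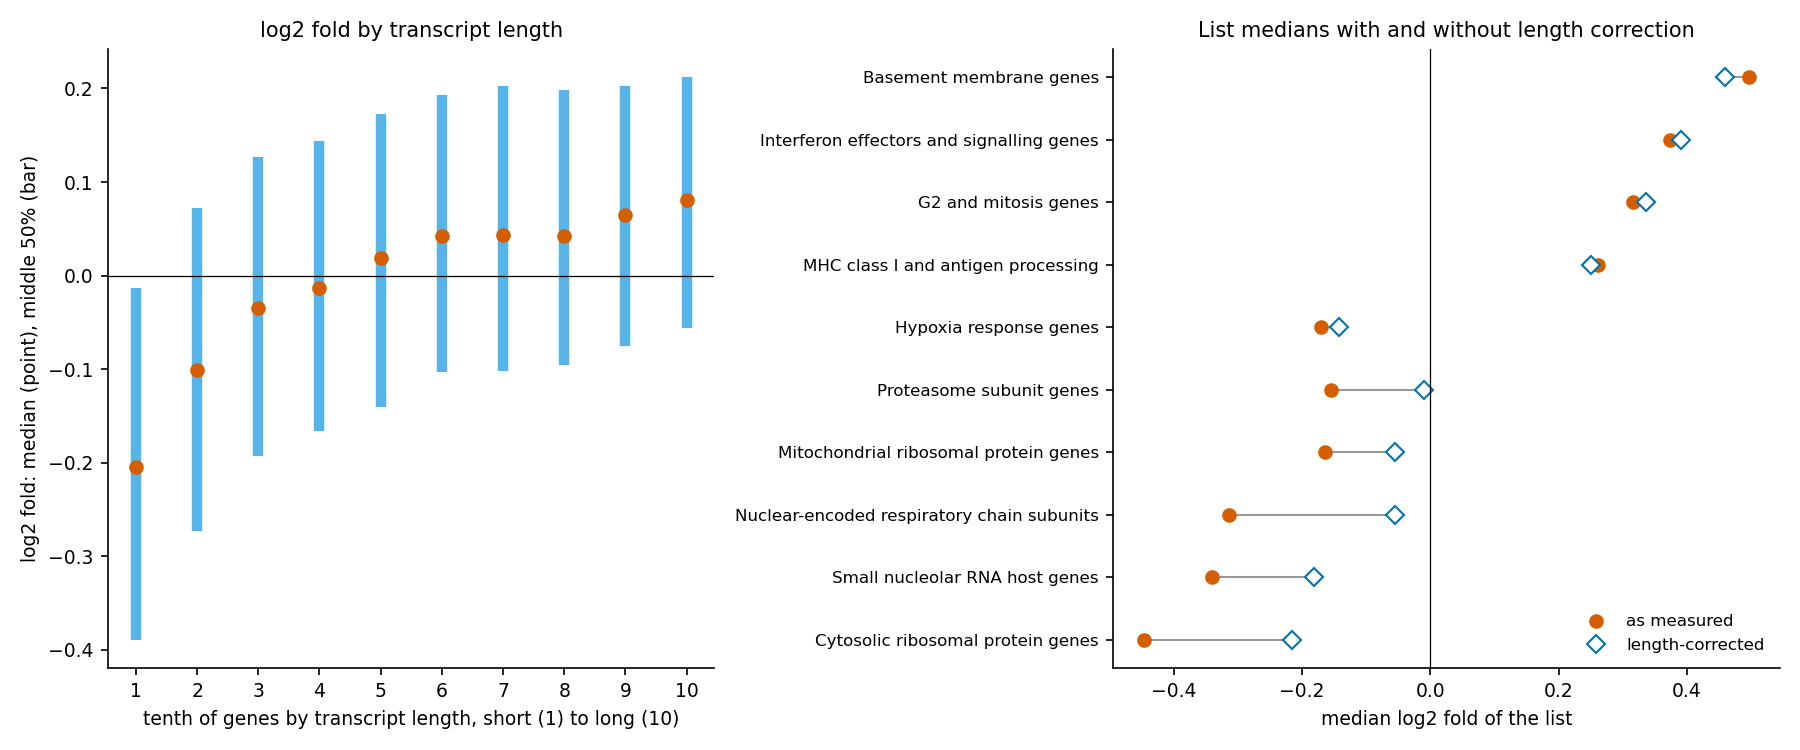
Left, median log2 fold (points) and middle 50% (bars) in 10 equal classes of genes by transcript length. Right, list medians as measured (filled) and after subtracting a smoothed trend on length (open): ribosomal protein genes move from -0.45 to -0.22 and respiratory chain subunits from -0.31 to -0.06, while basement membrane, interferon and mitosis medians move by 0.04 or less.

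Genes of the translation apparatus were the most uniformly lower group. Of 82 cytosolic ribosomal protein genes, 66 were lower by 20% or more and 0 higher, against 12.3% and 11.8% of all genes. Of the 82, 1 (RPL7L1) lay above 0 and none reached 2-fold. Their median was -0.45 as measured and -0.22 after correction for length, with 12 then lower by 20% or more. The 84 such genes listed, measured or not, summed to 29510 and 22244 CPM. RPL37 had 5501 and 3187 counts, 1.69-fold lower (1.62 to 1.77), RPS20 3004 and 1779, 1.66-fold lower (1.56 to 1.76), and RPL3, one of the longer of these genes, 10587 and 9069, 1.15-fold lower (1.11 to 1.18). Many ribosomal protein genes have near-identical pseudogenes, among which the counting may have split reads. EEF1A1, the elongation factor, had 47960 and 36928 counts, 1.27-fold lower (1.26 to 1.29).

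Mitochondrial and nucleolar groups were lower together with length. Of 75 nuclear-encoded respiratory chain subunits, 33 were lower by 20% or more and 0 higher, against 12.3% and 11.8% of all genes. Their median of -0.31 became -0.06 after correction, when 9 were lower. NDUFB1, a small complex I subunit, had 243 and 131 counts, 1.82-fold lower (1.47 to 2.27). Of 78 mitochondrial ribosomal protein genes, 18 were lower and 0 higher (median -0.16), and after correction 2 and 1 (median -0.05). Of 37 proteasome genes, 5 were lower, close to the 12.3% of all genes, and 0 higher (median -0.15). After correction 0 proteasome genes were lower (median -0.01). Small nucleolar RNA host genes kept more of their difference, with 12 of 24 lower by 20% or more and 2 higher, and a median of -0.34 that became -0.18. SNHG32 had 1350 and 764 counts, 1.73-fold lower (1.59 to 1.90), and GAS5 50 and 27.

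Ferritin and other abundant transcripts of PC-3 gave the largest differences downward in CPM. FTH1, the ferritin heavy chain that stores iron, had 133528 and 94244 counts, 1.39-fold lower (1.38 to 1.40), or -2409 CPM, the largest difference downward of any gene. FTL, the light chain, had 11939 and 8423, also 1.39-fold lower, and HMOX1, haem oxygenase, 1111 and 713, 1.53-fold lower (1.39 to 1.68), while TFRC, the transferrin receptor, had 8929 and 9424. ODC1, the first enzyme of polyamine synthesis, had 22929 and 15211 counts, 1.48-fold lower (1.45 to 1.51). MSMP, a secreted protein of prostate cancer cells, had 44821 and 33236, 1.32-fold lower (1.31 to 1.34), and S100A6 29652 and 22329. Ferritins, TMSB10 (15004 and 9953) and S100A6 are also short transcripts.

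Several genes of varied function that PC-3 tissue alone held at 20 CPM or more were lower. KRT20, a keratin of gut and urothelial epithelium, had 1460 and 784 counts, 1.83-fold lower (1.68 to 2.00). GNG2, a G protein subunit, had 1131 and 637, 1.74-fold lower (1.58 to 1.92), and DEPP1, a target of FOXO factors, 2314 and 1340, 1.70-fold lower (1.58 to 1.81). The lipid-handling genes PPARG (6609 and 5314) and FABP4 (1401 and 934), listed as adipocyte markers but expressed by PC-3 tissue alone, were 1.22-fold and 1.47-fold lower. HOXB13, the prostate homeobox gene, had 10668 and 8651 counts, and HEY1, a Notch target, 1885 and 1294.

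Epithelial surface and junction genes were slightly higher in the same library. Of 19 epithelial markers, 5 were higher by 25% or more and 0 lower, against 11.8% and 12.3% of all genes, and the median was 0.15. After correction for length 4 were higher and 0 lower, with a median of 0.17. ST14, the membrane protease matriptase, had 4577 and 6046 counts, 1.35-fold higher (1.29 to 1.40), and EPCAM 2619 and 3405, 1.32-fold higher (1.26 to 1.39). Of 16 tight junction genes, 15 lay above 0, against 50.8% of all genes, with a median of 0.21. The keratin genes KRT8 (13605 and 14314) and KRT19 (22213 and 20797) were within 25%. Of the 19 epithelial markers, 16 lay above 0, so this RNA was not lower in the library that held fibroblasts.

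Immediate early genes, induced within minutes by growth factors or handling, were split. EGR1 had 7 and 84 counts, 12.2-fold higher (5.68 to 31.3), FOS 33 and 96, 2.96-fold higher (1.98 to 4.55), and FOSB 20 and 46. JUND (4490 and 3373) and KLF6 (1623 and 1236) were lower, at folds of 0.765 and 0.776. Over 23 measured genes, 3 were higher by 2-fold or more with 0 lower, with a median of -0.01 and a mean of 0.14.

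Nuclear noncoding RNAs did not move as a group. MALAT1 had 3109 and 6154 counts, 2.02-fold higher (1.93 to 2.11), but its antisense partner TALAM1 overlaps it, and since reads were not assigned to a strand by this kit their source is uncertain. NEAT1, the scaffold of paraspeckles, had 26984 and 26083 counts, a fold of 0.985, and NORAD 22925 and 21831. HOTAIR, from the HOXC cluster, had 16 and 36 counts, 2.29-fold (1.24 to 4.42). Of 14 measured, 4 were higher by 2-fold or more with 0 lower, and the median was 0.04. Among 24 HOX genes, 5 were higher by 25% or more and 4 lower: HOXC13 had 238 and 328 counts and HOXB5 136 and 75.

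The remaining lists lay near the median of all genes or held few measured members. Of 17 Notch and Hedgehog genes, 2 were higher by 25% or more and 3 lower by 20% or more, with a median of 0.08. Over 18 one-carbon and amino acid synthesis genes the median was 0.06. Among 17 replication-dependent histone genes 4 were lower and 0 higher, and the median of -0.14 became 0.11 after correction for length, so its direction depended on that correction. Of 9 measured metallothionein and zinc transporter genes 1 was higher and 1 lower: SLC39A1, a zinc importer, had 2009 and 2776 counts and MT1X, which binds zinc and copper, 186 and 114. Of 8 measured neuroendocrine markers 2 were higher and 1 lower by 2-fold or more, with a median of -0.12 and a mean of 0.47.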

How the data were processed

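RNA of 4 libraries was sequenced, of which the 2 PC-3 libraries are compared here. The authors deposited estimated counts per gene symbol, not scaled and not whole for 34.1% and 34.0% of values in the PC-3 libraries, per the table's own values. Per the labels' protocols, RNA was extracted with RNeasy columns and prepared with the TruSeq RNA v2 kit. The submitters' processing notes name FastQC, STAR, Partek and hg38. What each tool did, its version and the annotation are not given in the sources used here. Both PC-3 columns and both LNCaP columns were used.

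Counts were rounded and scaled with TMM over the 4 libraries (edgeR 4.0.16, R 4.3.3; DESeq2 1.42.0 size factors as an alternative), with factors of 1.006 and 0.999 for PC-3 without and with fibroblasts. The 1 CPM minimum used column totals. Log2 folds used a prior count of 2, and genes past each step were counted on them. For a gene at 0 counts the fold was taken against 3 counts and printed as a lower bound, genes at 1 to 3 counts have a ratio with its interval, and genes at 3 counts or fewer on both sides have no fold. No test was run and no p-value is given, since each group had 1 library. Transcript length was the median of a gene's basic transcripts in GENCODE release 29, and the trend was a lowess fit over 30% of genes (statsmodels 0.14.6). Gene positions and promoters are RefSeq, GRCh38.p14. Tables and figures were made in Python 3.11.15 with pandas 2.3.3, numpy 2.4.6, scipy 1.17.1 and matplotlib 3.10.9. The script was tested on simulated counts with known folds.

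The comparison and the 59 gene lists were chosen with earlier results of these data known. Named genes were lost-segment genes; per list, up to 5 highest and 5 lowest log2 folds with at least 20 counts in the higher library, the 5 most abundant, and members at 3 counts or fewer alone and 20 or more with fibroblasts; over all genes, at each of 6 levels in the monoculture, the 8 highest and 8 lowest with at least 100 counts; and the 12 largest gains and losses in CPM. Other list members are named to describe a complex or family and were chosen after their values were seen. The kit does not mark strand, so overlapping genes and near-identical copies are uncertain. Alternatives were other scalings, prior counts and low-count minimums, unrounded counts and the length correction. Some genes are not reported here.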

Additional observations from a re-analysis of the deposited data

Results flagged for a closer look

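Genes of G2 and mitosis went opposite ways in the 2 cancer lines when fibroblasts were added. Their median log2 fold was 0.32 in PC-3 tissue and -0.37 in LNCaP tissue, each over 1 library a side. The difference was not tested. The share of fibroblasts in each tissue was not known.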

How the results depend on the processing

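The low-count minimum moved the counts of genes most. With no minimum, 906 genes were higher by 2-fold or more, 440 lower by 2-fold, 2924 higher by 25% and 2749 lower by 20%; at 5 CPM or more in either library the counts were 87, 21, 950 and 1124, and at 20 CPM or more in the monoculture 19, 1, 397 and 640. The length correction left 1170 genes lower by 20% or more. Other scalings, prior counts of 0.5 and 5 and unrounded counts kept each of these 4 counts within 1.5 times. The share of higher genes past the 25% step was 48.8% as reported, 38.3% at 20 CPM or more in the monoculture and 60.4% after length correction; past 2-fold it was 68.7%, 80.6% at 5 CPM or more and 95% at 20 CPM or more. Other scalings moved the median of all genes by less than 0.1. The genes of PC-3 deletions reversed at 20 CPM or more in the monoculture, to a median of -0.0069, because 1 gene of the list was then left. Leaving out a replicate was not possible with 1 library a group. No paired analysis was possible because each group has 1 library. Depth limits genes near 1 CPM, whose intervals are wide.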
